A study of Mus musculus with 9 samples.

Results

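The D cyclins, cyclin E1 and CDK inhibitors of the Cdkn1 and Cdkn2 families were followed in RNA-seq libraries of cultured mouse spermatogonial stem cells (SSCs), the germline stem cells of the testis. Members were a fixed list of symbols, all found in the deposited count table, which gave 10 of its 53801 genes. These were Ccnd1, Ccnd2, Ccnd3, Ccne1, Cdkn1b, Cdkn1c, Cdkn2a, Cdkn2b, Cdkn2c and Cdkn2d, and all 10 passed the filter on low counts, as did 22452 genes of the table. Ccne2, the other E cyclin gene, and Cdkn1a, the other gene of the Cdkn1 family, were not on this list and are described with the remaining genes of the pathway. All 9 libraries came from SSCs of Prmt5 flox/flox; Rosa26-CreERT2 mice given 4-hydroxytamoxifen (4OHT) at 1 µM, which activates the Cre recombinase expressed from the ubiquitous Rosa26 locus and thereby deletes Prmt5, the gene of an arginine methyltransferase. Of these, 3 libraries had 4OHT alone, 3 carried in addition a sequence labelled MU and 3 a sequence labelled OE. Following the description of the rescue experiment in the study, MU was read as the catalytically dead PRMT5 (E444Q) and OE as PRMT5 (WT), both delivered by lentivirus, so the names of the constructs below depend on that reading. The ethanol-treated cells that kept Prmt5 were not analysed here, so a difference from 4OHT alone shows what accompanied the return of a PRMT5 construct and not what the deletion itself did. The labels name no group with virus alone. An effect of the lentivirus or its handling therefore cannot be told apart from that of a construct in the comparisons with 4OHT alone. The labels do not say whether the 3 libraries of a group came from separate cultures, so the p-values measure the spread between libraries, which may be technical.

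In the G1 phase of the cell cycle, D cyclins bind CDK4 and CDK6, and E cyclins bind CDK2. The active kinases phosphorylate the retinoblastoma protein and its relatives, which releases E2F transcription factors and lets the cell enter S phase. Inhibitors act on these kinases in separate ways, since the INK4 proteins of the Cdkn2 genes bind CDK4 and CDK6 and keep D cyclins away, while the CIP/KIP proteins of the Cdkn1 genes bind cyclin and CDK complexes as a whole. In SSCs, growth factors of the niche such as GDNF are known to act on proliferation in part through D cyclins, and Cdkn2a and Cdkn1b are known brakes on the expansion of germ cells.

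The total counts per library ranged from 78751996 to 95370711 with 4OHT alone, from 192033300 to 365719548 with PRMT5 (E444Q) and from 79941857 to 154557863 with PRMT5 (WT). A read pair may stand for about 4 counts in this table, in which case the depth in pairs is lower. Values below are CPM, counts scaled to library size after TMM normalization, which evens out differences in composition. An adjusted p under 0.05 from the edgeR model of all 9 libraries was taken as a call. Prmt5 was at 30.3 ± 1.92 CPM (SD, n = 3) with 4OHT alone, rising to 146.1 ± 0.957 CPM in the presence of PRMT5 (E444Q) and to 1076 ± 7.61 CPM in that of PRMT5 (WT), so the constructs also differed in the amount of Prmt5 mRNA. Reads of the construct and of what remained of the endogenous gene are joined in these values. The summed level of 12 germ cell markers was 2208 to 2278 CPM with 4OHT alone, 2663 to 2746 CPM for PRMT5 (E444Q) and 2909 to 2921 CPM for PRMT5 (WT), and 7 of them rose and 4 fell in either comparison with 4OHT alone. The most abundant were Dazl (381 ± 25.9, 687 ± 24.5 and 791 ± 30.2 CPM in that order of groups) and Ddx4 (298 ± 16.9, 551 ± 23.4 and 590 ± 16.1 CPM), both genes of germ cell RNA-binding proteins. The 4 that fell included Ret (376 ± 45.3, 194.5 ± 0.785 and 203 ± 5.35 CPM) and Zbtb16 (291 ± 19.5, 183 ± 5.38 and 200 ± 9.18). The others were Etv5 (125.5 ± 6.92, 13.8 ± 0.345 and 12.1 ± 1.17 CPM) and Gfra1 (120.4 ± 4.09, 27.55 ± 0.786 and 28.2 ± 0.717). Markers of fibroblasts, which serve as feeder cells for SSCs, were abundant too, and the sum of 14 of them was 10173 to 12320 CPM, 5626 to 5698 CPM and 4407 to 4493 CPM in the same order. Sums were 170 to 186, 1138 to 1171 and 2213 to 2337 CPM for 10 macrophage markers, and 570 to 624, 975 to 997 and 1058 to 1081 CPM for 6 markers of cycling cells. All 10 macrophage markers rose with either construct. Markers of Sertoli, Leydig and endothelial cells summed to at most 31.3, 7.12 and 20.6 CPM in any library, led by Sox9 (6.05 to 16.2 CPM as group means) and Wt1 (4.84 to 7.01), by Star (5.54 to 6.41) and by Pecam1 (7.34 to 9.74) and Vwf (2.57 to 4.46). The Leydig gene Cyp11a1 was at 0 with 4OHT alone and at 0.302 and 0.152 CPM with the constructs, and Hsd3b1 and Lhcgr were at 0 in every library. Of the markers tested, 3 of 7 Sertoli genes rose and 2 fell for PRMT5 (E444Q), and 3 rose and 3 fell for PRMT5 (WT). Of 2 Leydig genes 1 rose for each construct, and of 5 endothelial genes 2 rose with each while 2 fell for PRMT5 (E444Q) and 1 for PRMT5 (WT).

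With 4OHT alone the most abundant members per exon length were Cdkn2a, at 176 ± 22.9 CPM per kb of exon (SD, n = 3), Ccnd1 at 130 ± 2.61, Cdkn2b at 88.8 ± 6.11 and Ccnd2 at 63.0 ± 3.05. Cdkn1c followed at 29.4 ± 4.20 CPM per kb and Ccnd3 at 13.6 to 16.9, and the other 4 members lay between 0.811 and 6.70 CPM per kb. In this group the ranges of Cdkn1b and Cdkn2d overlapped, while all other neighbours in the order were apart. With PRMT5 (WT) the order was Cdkn2a at 61.6 ± 2.26 CPM per kb, Ccnd2 at 26.3 ± 0.880, Cdkn1c at 25.3 ± 0.709, Ccnd1 at 16.6 ± 0.596 and Cdkn2b at 14.1 to 15.9, of which Ccnd2 and Cdkn1c overlapped, as did Cdkn2d and Cdkn1b further down. With PRMT5 (E444Q) the order was Cdkn2a at 67.3 ± 2.93 CPM per kb, Cdkn1c at 26.9 ± 2.29, Ccnd2 at 23.3 ± 0.257, Ccnd1 at 19.9 ± 0.414 and Cdkn2b at 17.7 ± 0.669, and no neighbours overlapped. Cdkn2a thus led and Cdkn2c came last in all 3 groups, while Ccnd1 moved from the second place to the fourth with either construct.

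**Figure D1:**
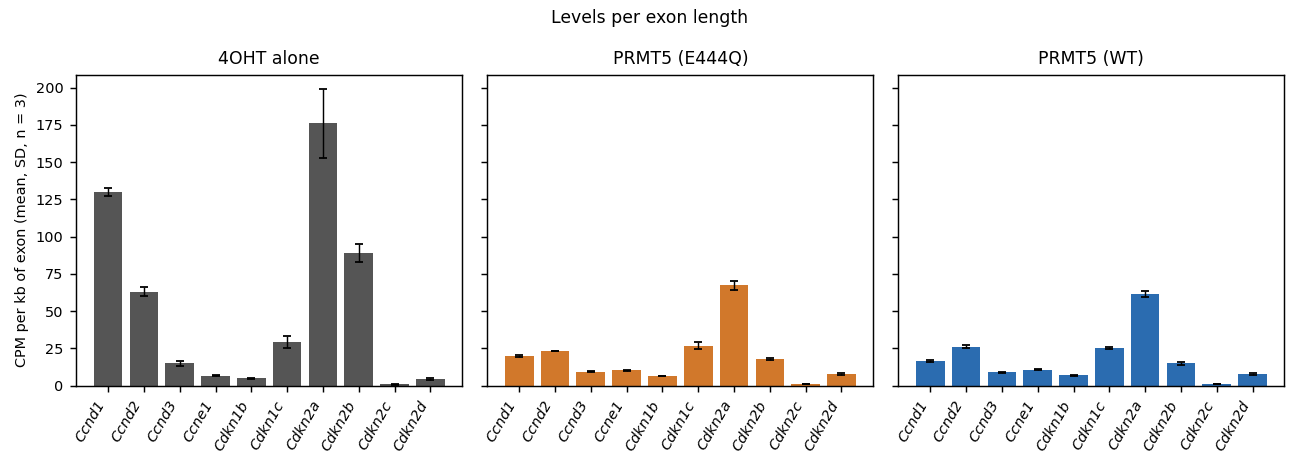
Levels of the 10 genes per exon length in the 3 groups, as the mean CPM per kb of exon (bars start at 0) with SD over 3 libraries. Cdkn2a, Ccnd1, Cdkn2b and Ccnd2 stand out with 4OHT alone, and these 4 bars are lower with both constructs.

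Relative to 4OHT alone, 8 of the 10 members were called for each of the constructs, in both cases 5 lower and 3 higher. The 3 D cyclins, Cdkn2a and Cdkn2b were the lower members, and Ccne1, Cdkn1b and Cdkn2d the higher ones. Differences between these groups were widespread in the whole table, which is the background for these counts. With PRMT5 (E444Q), 56.0% of all genes tested had an adjusted p under 0.05 (29.5% higher and 26.5% lower), and with PRMT5 (WT) 57.8% did (29.9% higher and 27.9% lower). The libraries of the groups did not overlap for 9 members in each comparison, against 63.9% of all genes for PRMT5 (E444Q) and 61.6% for PRMT5 (WT). The median log2 fold change of the members was -0.40 with PRMT5 (E444Q) and -0.47 with PRMT5 (WT), beside 0.04 and 0.02 for all genes. Both comparisons use the same libraries with 4OHT alone, so that they are not independent of each other. In bulk libraries fewer cells of a type and less RNA per cell cannot be told apart, and this holds for every difference given here.

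**Figure D2:**
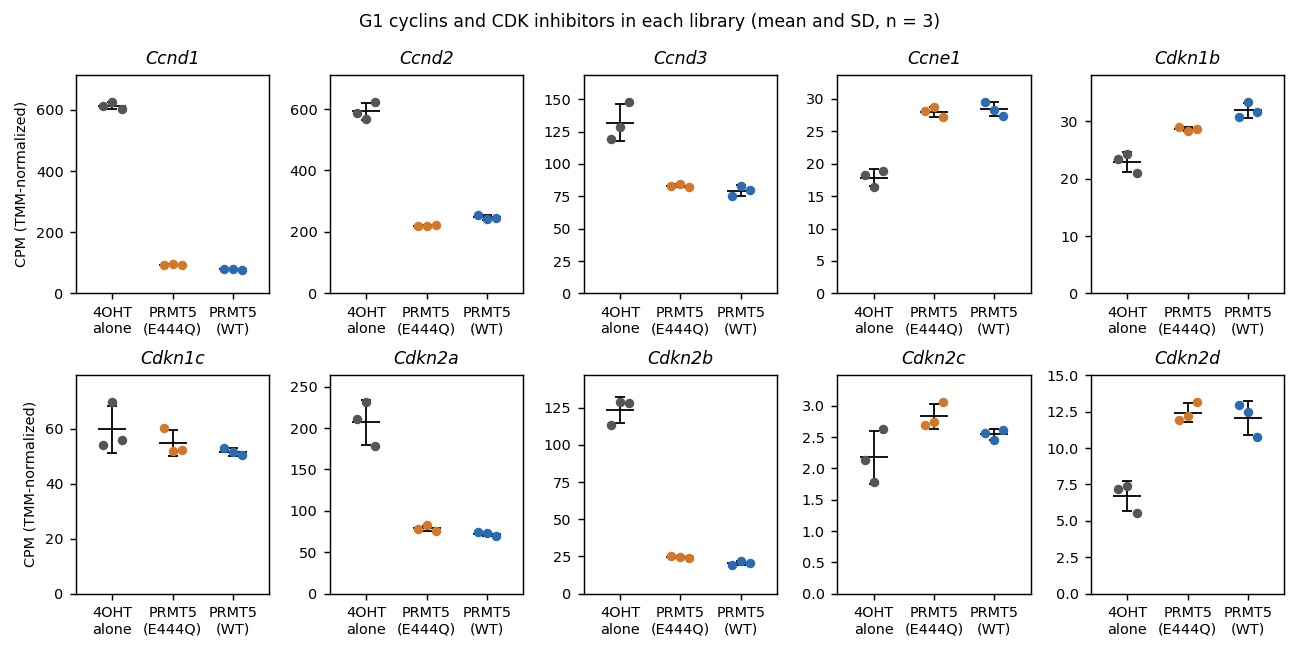
TMM-normalized CPM of each gene in each of the 9 libraries (points), with the mean and SD of 3 libraries per group (black) and a separate linear axis from 0 for each gene. The D cyclins, Cdkn2a and Cdkn2b are high with 4OHT alone and low with both constructs, while Ccne1, Cdkn1b and Cdkn2d show the opposite order.

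Ccnd1 (ENSMUSG00000070348, GRCm38 chromosome 7, 144929931 to 144939925, minus strand) encodes cyclin D1, the D cyclin that responds most directly to mitogens in many cells. Its values were 613, 626 and 601 CPM in the libraries with 4OHT alone, 93.0, 96.1 and 92.5 CPM with PRMT5 (E444Q), and 81.2, 78.5 and 75.6 CPM with PRMT5 (WT). The 3 groups did not overlap, and the libraries with 4OHT alone stood far above both others. The log2 fold change against 4OHT alone was -2.71 (standard error 0.048, adjusted p = 1.13e-13 from edgeR) with PRMT5 (E444Q), a level 6.53-fold lower. With PRMT5 (WT) it was -2.97 (standard error 0.048, adjusted p = 2.98e-14 from edgeR), a level 7.83-fold lower.

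Ccnd2 (ENSMUSG00000000184, chromosome 6, 127125162 to 127152193, minus strand) encodes cyclin D2, a D cyclin with a known part in germ cell proliferation. It was measured at 587, 567 and 623 CPM with 4OHT alone, at 218.5, 217.8 and 222 CPM with PRMT5 (E444Q) and at 257, 241 and 245 CPM with PRMT5 (WT). All libraries with a construct were below all those with 4OHT alone, by 1.43 on the log2 scale for PRMT5 (E444Q) (log2 fold change -1.43, adjusted p = 3.08e-11 from edgeR) and by 1.26 for PRMT5 (WT) (log2 fold change -1.26, adjusted p = 6.45e-11 from edgeR). Ccnd3 (ENSMUSG00000034165, chromosome 17, 47505051 to 47599691, plus strand), the gene of cyclin D3, was at 119.7, 128 and 148 CPM with 4OHT alone, 82.8, 84.3 and 82.4 CPM with PRMT5 (E444Q), and 75.3, 83.4 and 79.6 CPM with PRMT5 (WT). Its log2 fold changes were nearer to 0 than those of the other D cyclins, with values of -0.67 (adjusted p = 1.61e-06 from edgeR) and -0.73 (adjusted p = 5.97e-07 from edgeR) for PRMT5 (E444Q) and PRMT5 (WT). Summed over the D cyclins, the level was 208 ± 2.33 CPM per kb of exon (SD, n = 3) with 4OHT alone, 52.7 ± 0.386 for PRMT5 (E444Q) and 52.0 ± 0.986 for PRMT5 (WT). Within this sum Ccnd1 held 62.6% ± 1.8 with 4OHT alone, 37.8% ± 0.55 for PRMT5 (E444Q) and 32.0% ± 0.58 for PRMT5 (WT). Ccnd2 held 30.2% ± 1.2, 44.2% ± 0.67 and 50.6% ± 1.0 in the same order. By this measure the leading D cyclin changed from Ccnd1 to Ccnd2. The shares depend on annotated exon length, retained introns included, which was 4709 bases for Ccnd1, 9409 for Ccnd2 and 8775 for Ccnd3. In CPM without division by length, Ccnd1 and Ccnd2 overlapped with 4OHT alone, and Ccnd2 was the higher with both constructs. Exons of each D cyclin gene overlap those of a gene on the opposite strand (LTO1 for Ccnd1, 9330179D12Rik and Gm43126 for Ccnd2, Bysl for Ccnd3), and whether the counting used the strand is not stated. A pseudogene of Ccnd3, Ccnd3-ps, held 0 to 16 counts per library.

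Fibroblast markers moved in the same direction as the D cyclins. All 14 were lower with PRMT5 (WT) than with 4OHT alone, with log2 fold changes from -2.56 to -0.26 and a median of -1.14. With PRMT5 (E444Q) 13 were lower and 1 higher, with a range from -2.18 to 0.17 and a median of -0.81. The most abundant were Fn1, the gene of fibronectin, at 4957 ± 672 CPM with 4OHT alone, 1822 ± 24.0 for PRMT5 (E444Q) and 1488 ± 20.3 for PRMT5 (WT), and Col1a2, a collagen I gene, at 1458 ± 129, 781 ± 15.6 and 585 ± 11.1 CPM in that order. Ccnd1 fell by more than every one of these markers in both comparisons. Germ cell markers were split, with 7 rising and 4 falling for each construct. Etv5 was at -3.18 for PRMT5 (E444Q) and -3.38 for PRMT5 (WT), a larger fall than that of Ccnd1. The other falling ones were Gfra1 (-2.13 and -2.09), Ret (-0.95 and -0.89) and Zbtb16 (-0.67 and -0.54). The part of fibroblast or germ cell RNA in the levels of the cyclins and inhibitors was not tested.

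Ccne1 (ENSMUSG00000002068, chromosome 7, 38097984 to 38107534, minus strand) encodes cyclin E1, the partner of CDK2 at entry into S phase and a known target of E2F. In contrast to the D cyclins it was higher with both constructs, at 18.3, 16.4 and 18.9 CPM with 4OHT alone, 28.0, 28.8 and 27.1 CPM with PRMT5 (E444Q), and 29.5, 28.3 and 27.4 CPM with PRMT5 (WT). The libraries with a construct lay above those with 4OHT alone without overlap and mixed among themselves. Log2 fold changes against 4OHT alone were 0.65 (standard error 0.069, adjusted p = 2.09e-06 from edgeR) for PRMT5 (E444Q) and 0.67 (standard error 0.070, adjusted p = 1.50e-06 from edgeR) for PRMT5 (WT). Markers of cycling cells also rose, 6 of 6 in each comparison, with medians of 0.74 and 0.83. Top2a, the gene of a topoisomerase of dividing cells, was at 303 ± 11.2, 463 ± 5.46 and 513 ± 11.9 CPM, and Mki67, which encodes KI67, at 96.9 ± 11.3, 161 ± 3.95 and 171 ± 4.33 CPM, each in the order 4OHT alone, PRMT5 (E444Q), PRMT5 (WT). The part of a changed share of cycling cells in the level of Ccne1 was not tested.

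**Figure D3:**
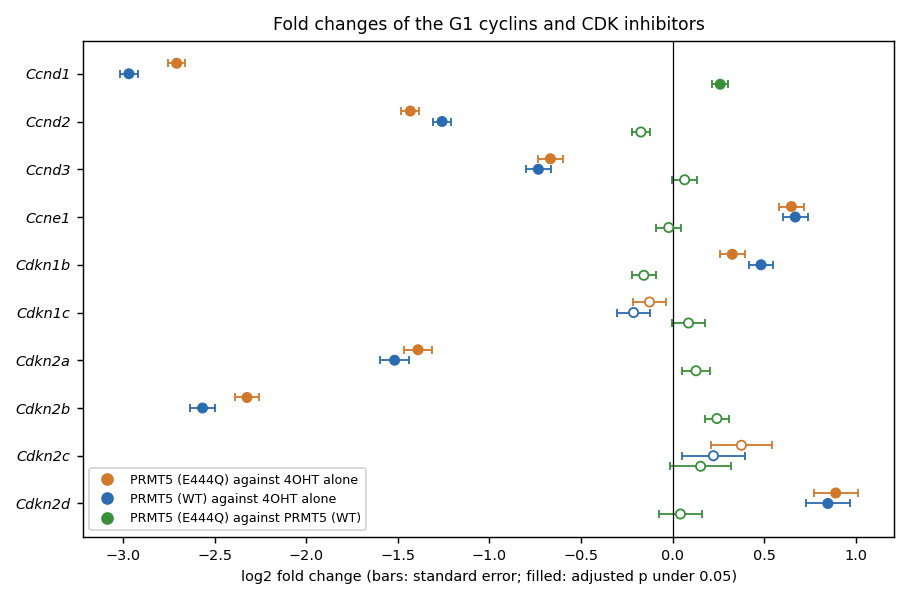
Log2 fold change of each gene in the 3 comparisons, with its standard error, from the edgeR model of all 9 libraries (filled points have an adjusted p under 0.05). The points against 4OHT alone spread from -2.97 for Ccnd1 to 0.89 for Cdkn2d, while those between the constructs stay between -0.17 and 0.26.

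The CIP/KIP genes differed in direction, since Cdkn1b rose, Cdkn1c did not pass the test, and Cdkn1a, which is no member, fell with both constructs. Cdkn1b (ENSMUSG00000003031, chromosome 6, 134920401 to 134925513, plus strand), which encodes p27 (KIP1), was at 23.4, 24.3 and 20.9 CPM with 4OHT alone, 29.0, 28.4 and 28.7 CPM with PRMT5 (E444Q), and 30.8, 33.4 and 31.7 CPM with PRMT5 (WT). The 3 groups did not overlap, with 4OHT alone lowest and PRMT5 (WT) highest. Against 4OHT alone the log2 fold change was 0.33 (standard error 0.067, adjusted p = 0.000828 from edgeR) with PRMT5 (E444Q) and 0.48 (standard error 0.067, adjusted p = 2.74e-05 from edgeR) with PRMT5 (WT). Cdkn1c (ENSMUSG00000037664, chromosome 7, 143458339 to 143461050, minus strand), the imprinted gene of p57 (KIP2), was at 53.9, 69.7 and 56.0 CPM with 4OHT alone, 60.3, 52.1 and 52.3 CPM with PRMT5 (E444Q), and 53.2, 51.6 and 50.3 CPM with PRMT5 (WT). The second library with 4OHT alone was the highest of the 9. Its log2 fold changes were -0.13 (adjusted p = 0.248 from edgeR, 95% interval -0.32 to 0.06) for PRMT5 (E444Q) and -0.21 (adjusted p = 0.0545 from edgeR, 95% interval -0.40 to -0.02) for PRMT5 (WT). Without the second library with 4OHT alone the value for PRMT5 (E444Q) was 0.007, and for PRMT5 (WT) the adjusted p ranged from 0.0117 to 0.345 over 17 alternatives, 7 of which called it lower. The exons of Cdkn1c overlap those of Gm44732 on the opposite strand.

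The INK4 genes split into a pair that fell and a pair that did not. Cdkn2a and Cdkn2b lie next to each other on chromosome 4, on the same strand and 11645 bases apart. Cdkn2a (ENSMUSG00000044303, 89274471 to 89294653, minus strand) has a pair of first exons 12427 bases apart that give different proteins. The upstream start leads to p19ARF, which stabilizes p53, and the downstream start to p16INK4a, which binds CDK4 and CDK6. Counts per gene join both transcripts, so the values of Cdkn2a cannot be assigned to either protein. To show how different these starts are, the 250 bases upstream of each, and of the start of Cdkn2b, are given from RefSeq (GRCm38.p6, minus strand, 5′ to 3′) at chr4:89294620-89294869, chr4:89282193-89282442 and chr4:89311033-89311282. Capitals mark matches to the motifs described next.
Cdkn2a, upstream start (ARF): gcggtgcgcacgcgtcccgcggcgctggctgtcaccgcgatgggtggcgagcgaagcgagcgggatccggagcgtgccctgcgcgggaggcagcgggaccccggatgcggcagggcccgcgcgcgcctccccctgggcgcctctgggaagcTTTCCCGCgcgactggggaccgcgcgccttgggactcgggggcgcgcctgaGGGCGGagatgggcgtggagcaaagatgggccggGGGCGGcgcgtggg
Cdkn2a, downstream start (INK4a): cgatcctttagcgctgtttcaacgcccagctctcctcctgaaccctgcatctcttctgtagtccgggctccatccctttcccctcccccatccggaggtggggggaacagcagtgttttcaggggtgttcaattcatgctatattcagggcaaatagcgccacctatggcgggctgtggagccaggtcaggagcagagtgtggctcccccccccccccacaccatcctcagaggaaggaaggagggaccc
Cdkn2b: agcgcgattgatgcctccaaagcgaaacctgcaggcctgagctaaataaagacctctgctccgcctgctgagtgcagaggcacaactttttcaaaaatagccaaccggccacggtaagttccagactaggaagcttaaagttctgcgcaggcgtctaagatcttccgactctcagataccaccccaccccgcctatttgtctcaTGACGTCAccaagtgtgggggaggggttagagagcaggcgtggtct

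Motifs were searched by their letters on both strands. An E2F site was taken as TTTCCCGC, TTTCGCGC, TTTGCCGC or TTTGGCGC, and a cAMP response element as TGACGTCA. A GC box was spelled GGGCGG and an E box CACGTG. The remaining motif was the CCAAT box, searched by those letters. The window upstream of the ARF start held 1 E2F match, TTTCCCGC at 99 bases before the start, and GC boxes at 48 and 14 bases. No match was found before the INK4a start, and the window of Cdkn2b held 1 cAMP response element at 46 bases. Among 32851 RefSeq windows of the same length, 1.86% held an E2F match, 1.55% the cAMP response element, 32.7% a GC box, 33.8% a CCAAT box and 6.02% an E box. RefSeq windows were found for 7 of the 10 members. A match describes these letters and not the binding of a factor.

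Cdkn2a was at 211, 231 and 178 CPM with 4OHT alone, 78.1, 82.6 and 75.9 CPM with PRMT5 (E444Q), and 74.6, 72.7 and 69.3 CPM with PRMT5 (WT). The log2 fold changes against 4OHT alone were -1.39 (standard error 0.079, adjusted p = 3.67e-09 from edgeR) and -1.52 (standard error 0.079, adjusted p = 1.35e-09 from edgeR), respectively, and no library with a construct reached the level of those with 4OHT alone. Cdkn2b (ENSMUSG00000073802, 89306299 to 89311039, minus strand) encodes p15INK4b, which is known to respond to TGF-beta in other cells. It was at 113.6, 129 and 128 CPM with 4OHT alone, 25.6, 24.6 and 23.8 CPM with PRMT5 (E444Q), and 19.6, 22.1 and 20.8 CPM with PRMT5 (WT). Its log2 fold changes were larger in size than those of its neighbour, at -2.32 (standard error 0.066, adjusted p = 5.75e-12 from edgeR) and -2.57 (standard error 0.068, adjusted p = 1.94e-12 from edgeR), which are 5.01-fold and 5.92-fold lower levels. The difference between the changes of Cdkn2a and Cdkn2b was itself not tested.

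Cdkn2d and Cdkn2c encode p19INK4d and p18INK4c, which are less tied to senescence than the pair above. Cdkn2d (ENSMUSG00000096472, chromosome 9, 21288410 to 21291407, minus strand) was at 7.18, 7.41 and 5.51 CPM with 4OHT alone, 11.9, 12.2 and 13.2 CPM with PRMT5 (E444Q), and 13.0, 12.5 and 10.8 CPM with PRMT5 (WT). Every one of the 6 libraries with a construct lay above those with 4OHT alone, with log2 fold changes of 0.89 (standard error 0.12, adjusted p = 1.88e-05 from edgeR) and 0.85 (standard error 0.12, adjusted p = 3.06e-05 from edgeR), the largest rise of the members. Cdkn2c (ENSMUSG00000028551, chromosome 4, 109660876 to 109667189, minus strand) had the lowest level, at 2.14, 1.78 and 2.62 CPM with 4OHT alone, 2.69, 2.75 and 3.06 CPM with PRMT5 (E444Q), and 2.57, 2.45 and 2.62 CPM with PRMT5 (WT). It did not pass the test, with log2 fold changes of 0.38 (adjusted p = 0.0722 from edgeR, 95% interval 0.02 to 0.74) and 0.22 (adjusted p = 0.284 from edgeR, 95% interval -0.14 to 0.59), and was called for PRMT5 (E444Q) in 2 of 17 alternatives, without the third library with 4OHT alone (0.53, adjusted p = 0.0219 from edgeR) and with library totals only (0.49, adjusted p = 0.0202 from edgeR), in a range of 0.0202 to 0.233. Summed over the INK4 genes, the level was 270 ± 23.6 CPM per kb of exon (SD, n = 3) with 4OHT alone, 94.0 ± 2.83 for PRMT5 (E444Q) and 85.2 ± 2.81 for PRMT5 (WT). Most of this sum was Cdkn2a, at 65.1% ± 3.5, 71.6% ± 0.98 and 72.3% ± 0.84, whose counts include the transcript of p19ARF. Cdkn2d made up 1.57% ± 0.15, 8.41% ± 0.65 and 8.99% ± 0.58 of it, while Cdkn2b made up 33.0% ± 3.5, 18.9% ± 0.72 and 17.6% ± 1.2. Cdkn1b and Cdkn1c together were at 34.4 ± 4.44, 33.2 ± 2.34 and 32.4 ± 0.650 CPM per kb of exon, while Cdkn1a, the CIP/KIP gene left out of this sum, was at 122, 43.3 and 34.9 CPM per kb as group means.

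The windows of Cdkn2d and Ccne1 are shown for the members with the largest rises (RefSeq, GRCm38.p6, minus strand, 5′ to 3′, 250 bases, chr9:21291210-21291459 and chr7:38107491-38107740, capitals for motif matches).
Cdkn2d: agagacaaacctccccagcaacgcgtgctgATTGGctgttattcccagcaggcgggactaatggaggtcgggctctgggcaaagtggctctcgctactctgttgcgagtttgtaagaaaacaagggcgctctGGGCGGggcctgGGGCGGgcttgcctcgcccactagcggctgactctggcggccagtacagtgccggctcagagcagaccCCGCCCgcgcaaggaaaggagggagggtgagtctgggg
Ccne1: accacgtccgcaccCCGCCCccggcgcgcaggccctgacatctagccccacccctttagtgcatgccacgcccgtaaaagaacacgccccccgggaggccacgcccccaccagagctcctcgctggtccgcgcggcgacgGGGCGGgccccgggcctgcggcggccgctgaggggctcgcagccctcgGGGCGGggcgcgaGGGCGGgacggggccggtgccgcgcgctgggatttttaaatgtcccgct
The window of Cdkn2d held GC boxes at 118, 106 and 38 bases before the start and a CCAAT box at 220 bases, and that of Ccne1 held GC boxes at 236, 110, 62 and 49 bases. GC boxes were also present upstream of Cdkn1b (61 bases), which rose, and of Cdkn2c, which was not called. Ccnd3 and the ARF start of Cdkn2a, members that fell, held them too, so they were not restricted to members that rose. Neither Cdkn2d nor Ccne1 held an E2F match as spelled out above, nor did any window of the other members apart from the ARF start of Cdkn2a.

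The comparison of the constructs asks whether the catalytic activity of PRMT5 matters for these genes. Prmt5 mRNA was itself 7.36-fold lower in the PRMT5 (E444Q) libraries than in those of PRMT5 (WT) (adjusted p = 1.09e-12 from edgeR). Activity and the amount of construct mRNA therefore cannot be told apart here. The study reports from western blots that either construct restored PRMT5 protein, which these counts do not measure. Between PRMT5 (E444Q) and PRMT5 (WT), 1 of the 10 members had an adjusted p under 0.05 and was higher with PRMT5 (E444Q), and 0 were lower. Of all genes tested, 3.17% were called, 2.12% higher and 1.06% lower. An unadjusted p under 0.05 was found for 4 members in edgeR, and DESeq2 called 3. The member called was Ccnd1, whose 3 PRMT5 (E444Q) libraries (92.5 to 96.1 CPM) were all above the 3 PRMT5 (WT) libraries (75.6 to 81.2 CPM). The log2 difference was 0.26 (standard error 0.045, adjusted p = 0.00465 from edgeR), a 1.20-fold higher level, and the adjusted p stayed between 5.82e-06 and 0.04 over 17 alternatives. Cdkn2b was next in size at 0.24 (standard error 0.065, adjusted p = 0.0676 from edgeR, 95% interval 0.10 to 0.38), and 7 of 17 alternatives called it, with adjusted p from 0.0253 to 0.29. Ccnd2 pointed the other way at -0.17 (standard error 0.048, adjusted p = 0.0810 from edgeR, 95% interval -0.28 to -0.07), and 3 of 17 alternatives called it, with adjusted p from 0.00447 to 0.347.

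Cdkn1b was at -0.16 (adjusted p = 0.334 from edgeR, 95% interval -0.30 to -0.01). For the other 6 members the log2 fold changes between the constructs lay between -0.02 and 0.15 with adjusted p from 0.567 to 0.952. The 95% intervals were -0.17 to 0.13 for Ccne1, -0.08 to 0.22 for Ccnd3, -0.04 to 0.30 for Cdkn2a and -0.10 to 0.28 for Cdkn1c, and the widest were those of the low genes Cdkn2d (-0.21 to 0.29) and Cdkn2c (-0.20 to 0.51). The libraries of the constructs did not overlap for 6 of the 10 members, of which Ccnd1, Cdkn2a, Cdkn2b and Cdkn2c were above and Ccnd2 and Cdkn1b below in PRMT5 (E444Q), against 25.9% of all genes without overlap. For a single gene, 3 libraries against 3 cannot reach an exact permutation p below 0.10 (two-sided).

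Fibroblast markers moved in this comparison as well, and by more than Ccnd1. Of 14 markers 13 were higher with PRMT5 (E444Q) and 0 lower, with log2 fold changes from 0.29 to 0.45 and a median of 0.37, so that the 0.26 of Ccnd1 lay below their whole range. Macrophage markers were lower in 8 of 10 genes, with a median of -0.96, led by Lyz2 (lysozyme) at 944 ± 16.3 CPM with PRMT5 (E444Q) and 1878 ± 53.0 CPM with PRMT5 (WT) and by Mpeg1 at 74.3 ± 2.67 and 144 ± 7.49 CPM. Of the germ cell markers 0 of 12 were called by edgeR between the constructs (3 at an unadjusted p under 0.05, and 1 called by DESeq2), with a median of -0.06. Of the cycling markers 0 of 6 were called by edgeR (2 at an unadjusted p under 0.05, and 1 called by DESeq2), with a median of -0.10. The part of these cell types in the difference of Ccnd1 was not tested.

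**Figure D4:**
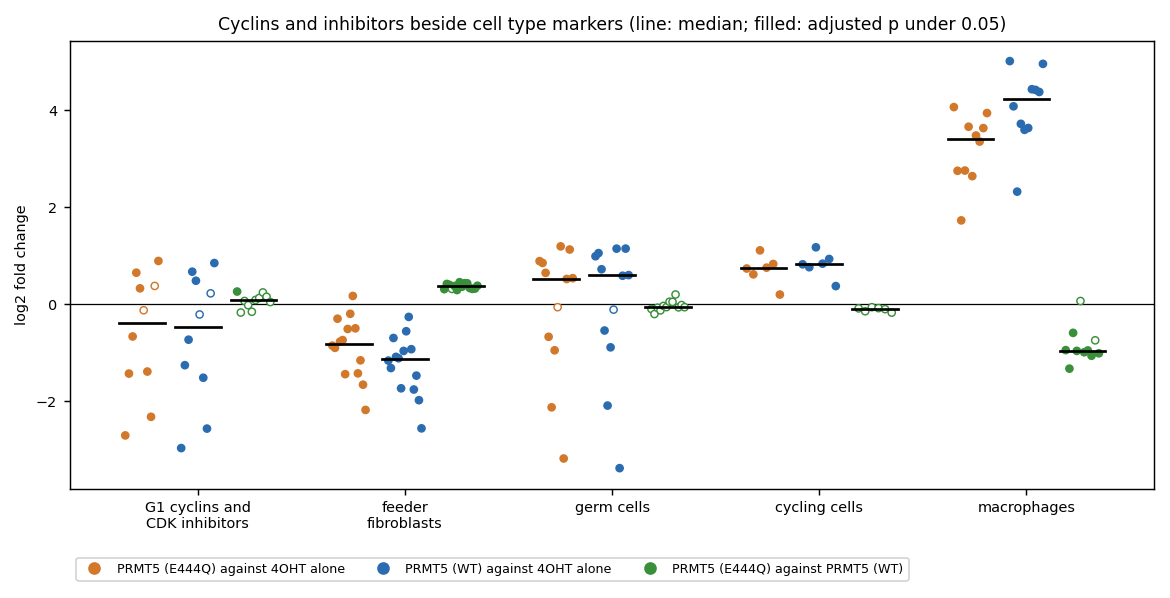
Log2 fold changes of the 10 cyclins and inhibitors beside those of marker genes of feeder fibroblasts, germ cells, cycling cells and macrophages in the 3 comparisons (points are genes, filled where the adjusted p is under 0.05, and lines are medians). The fibroblast markers lie between 0.29 and 0.45 for PRMT5 (E444Q) against PRMT5 (WT), above the 0.26 of Ccnd1, the member with the largest value.

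The remaining genes of the G1 pathway were described from 5 lists with 57 genes, all of which were tested. Against 4OHT alone 45 of them were called with PRMT5 (E444Q), 26 higher and 19 lower, and 45 with PRMT5 (WT), 27 higher and 18 lower, which is 78.9% in each case beside the 56.0% and 57.8% of all genes. Between the constructs 2 of the 57 were called by edgeR, both higher with PRMT5 (E444Q), which is 3.51% beside 3.17% of all genes.

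Among 10 CDK partners and activators, 2 rose and 4 fell with each construct. Ccne2, the gene of cyclin E2, rose like Ccne1, from 11.6 ± 1.01 CPM (SD, n = 3) with 4OHT alone to 25.8 ± 1.12 for PRMT5 (E444Q) and 27.6 ± 1.74 for PRMT5 (WT). The log2 values were 1.15 (adjusted p = 3.10e-08 from edgeR) and 1.25 (adjusted p = 1.24e-08 from edgeR). Cdkn1a, which encodes the CIP/KIP inhibitor p21 and is a target of p53, fell from 434 ± 18.4 CPM to 154 ± 2.30 and 124 ± 4.10 CPM, or by log2 values of -1.49 (adjusted p = 1.92e-11 from edgeR) and -1.81 (adjusted p = 2.45e-12 from edgeR). It was also called between the constructs, at 0.31 (adjusted p = 0.00181 from edgeR), within the range of the fibroblast markers in that comparison. Cdk4 and Cdk6, the partners of the D cyclins, also fell, with log2 fold changes of -0.25 and -0.58 for PRMT5 (E444Q) and -0.28 and -0.67 for PRMT5 (WT), while Cdk2 was at 0.04 and 0.07 without passing the test.

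Of 13 pocket protein and E2F genes, 7 rose and 4 fell with PRMT5 (E444Q), and 8 rose and 3 fell with PRMT5 (WT), with medians of 0.23 and 0.31. None of these changed at least 2-fold, and their log2 fold changes lay between -0.90 and 0.61. Among 11 genes for the turnover of G1 cyclins and inhibitors, 7 rose and 2 fell with each construct. Fbxo4, an F-box gene described as acting on cyclin D1, was the 1 gene here with at least a 2-fold change, at 7.66 ± 0.945, 3.23 ± 0.388 and 2.55 ± 0.854 CPM in the same order of groups, giving -1.25 (adjusted p = 9.27e-05 from edgeR) and -1.59 (adjusted p = 1.16e-05 from edgeR) on the log2 scale.

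Of 16 transcriptional regulators 5 rose and 8 fell with each construct. Myc, a growth-promoting transcription factor, fell from 33.7 ± 3.56 CPM with 4OHT alone to 9.89 ± 0.654 for PRMT5 (E444Q) and 8.19 ± 0.477 for PRMT5 (WT), or -1.77 (adjusted p = 1.32e-09 from edgeR) and -2.04 (adjusted p = 3.36e-10 from edgeR) on the log2 scale. Mdm2, a p53 target that limits p53, fell from 697 ± 30.0 to 268 ± 6.79 and 255 ± 7.75 CPM, at -1.38 (adjusted p = 4.01e-11 from edgeR) and -1.45 (adjusted p = 1.71e-11 from edgeR). Foxo1, a forkhead factor of undifferentiated spermatogonia, rose from 178 ± 4.44 to 358 ± 6.43 and 391 ± 7.81 CPM, at 1.01 (adjusted p = 2.40e-10 from edgeR) and 1.14 (adjusted p = 6.04e-11 from edgeR). Id1, an inhibitor of basic helix-loop-helix factors, was the other gene called between the constructs, at 39.3 ± 0.194 CPM with PRMT5 (E444Q) and 29.8 ± 1.17 CPM with PRMT5 (WT), which on that scale is 0.40 (adjusted p = 0.00129 from edgeR). Of 7 S phase and mitotic genes, 5 rose and 1 fell with each construct. Ccnb3, a cyclin of meiotic germ cells, had the largest change, from 5.01 ± 0.493 CPM to 21.6 ± 0.868 and 21.7 ± 1.10 CPM, at 2.10 (adjusted p = 2.01e-10 from edgeR) and 2.12 (adjusted p = 1.48e-10 from edgeR).

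**Figure D5:**
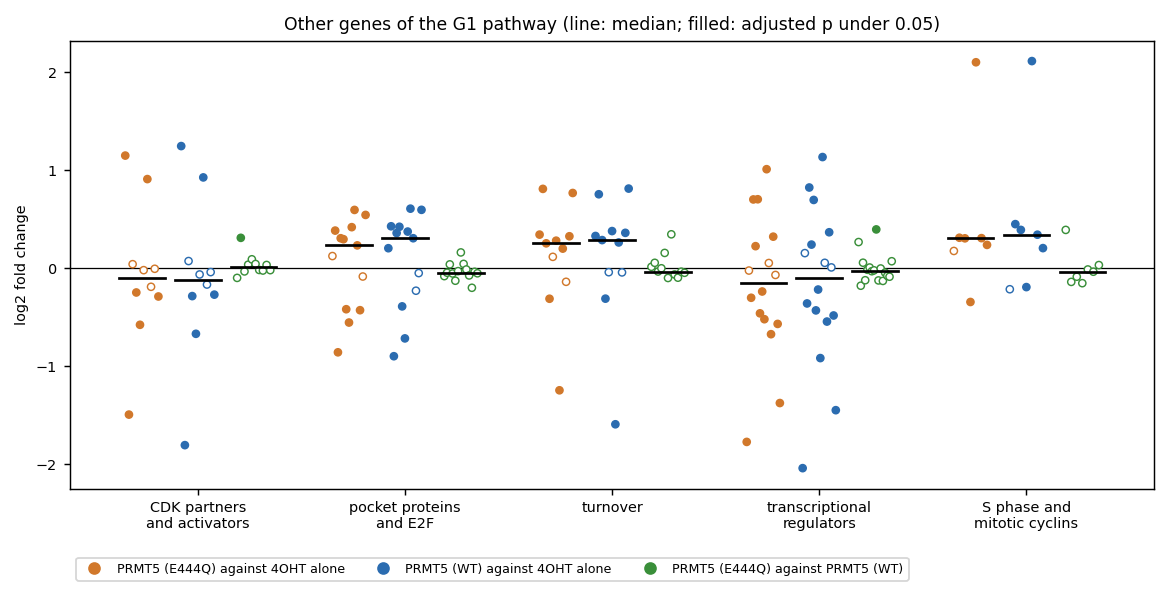
Log2 fold changes of 57 other genes of the G1 pathway in 5 lists, for the 3 comparisons (points are genes, filled where the adjusted p is under 0.05, and lines are medians). Between the constructs 2 of the 57 points are filled, Cdkn1a at 0.31 and Id1 at 0.40.

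Across the 9 libraries the members fell into a pair of opposite patterns, which is a description of 3 groups of libraries and mostly of the gap between 4OHT alone and the constructs. Pearson correlations of log2 CPM among Ccnd1, Ccnd2, Ccnd3, Cdkn2a and Cdkn2b were between 0.94 and 1.00, those among Ccne1, Cdkn1b and Cdkn2d between 0.86 and 0.91, and those between these sets from -0.98 to -0.89. Cdkn1c and Cdkn2c followed neither set as closely, with absolute values of at most 0.75. Among genes with a mean of at least 10 CPM, those most like Ccnd1 were Lbh (0.9995) and Tpm1 (0.9993), and those most like Cdkn2b were Spry2 (0.9993) and Vim (0.9992). For Cdkn2a they were Slc35a2 (0.9979) and Rps2-ps10 (0.9967), for Ccnd2 Sh3kbp1 (0.9985), and for Ccnd3 Rela (0.9981) and Sgsh (0.9975). The closest to Ccne1 were Prkcz (0.9976) and Xpo7 (0.9962), to Cdkn2d Fbxo45 (0.9958) and Card19 (0.9929), and to Cdkn1b Surf6 (0.9891) and Tbc1d15 (0.9871). The lowest such values belonged to Cdkn1c, with Hars2 (0.9514) and Fam58b (0.8917), and to Cdkn2c, with Senp1 (0.9495) and Plb1 (0.9363).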

How the data were processed

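RNA-seq counts of 9 libraries of 4OHT-treated SSCs were analysed, 3 per group, with groups taken from the sample labels. According to the methods and the submitters' processing notes, the authors used BBmap and Trimmomatic 0.39 for trimming, HISAT2 2.2.1 for alignment (to GRCm38) and StringTie 2.2.1 for gene quantification. The deposited values are whole-number counts per gene without normalization, and how they were derived from StringTie, and whether strand was used, is not given in the sources used here. Counts of 3 correspond to between 0.00792 and 0.0395 CPM, which covers counting error only.

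Genes were filtered with filterByExpr (minimum count 10, minimum total 15), normalized by TMM and tested with the quasi-likelihood test of edgeR 4.0.16 in R 4.3.3, fitting all 9 libraries together by group alone. P-values were adjusted by Benjamini-Hochberg over 22452 genes, with a threshold of 0.05. Intervals are 95% t intervals from the same model. Levels per length used the union of exons of GENCODE vM21 (GRCm38), retained introns included, so the order and shares of members depend on that annotation. The members, lists and tests were chosen with earlier results of these data known, so no list test was made. The text names all members, Prmt5, the pathway genes called with at least a 2-fold change against 4OHT alone or called between the constructs, the 2 most abundant markers of each cell type, and the 2 genes most correlated with each member, of which 1 for Ccnd2 is not reported here. Cdk2, Cdk4, Cdk6, Hsd3b1, Lhcgr, Etv5, Gfra1, Ret and Zbtb16 were added after their values were seen. The scripts were tested on simulated counts with known changes between the constructs. The model recovered 64 of 96 genes changed by 1 on the log2 scale and 78 of 97 changed by 2, with 8 false calls. Alternatives were other scalings, filters and sets of libraries, DESeq2 1.42.0, counts divided by 4, the replicate number as a block and each library left out.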

Additional observations from a re-analysis of the deposited data

How the results depend on the processing

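Against 4OHT alone, the number of members called was 8 or 9 of 10 with each construct under all 17 alternatives, and the 8 members called kept their direction and their call in each. Over 33 fold changes (10 members and Prmt5 in 3 comparisons) and 17 alternatives, 536 of 561 values kept direction and side of the threshold, 19 passed it in addition, 0 lost it and 6 turned. The 6 that turned were small, and none was called in any alternative. Ccne1 between the constructs was 0.003 with library totals only, 0.019 without a filter on low counts, 0.002 without the third PRMT5 (E444Q) library and 0.008 without the first PRMT5 (WT) library, in a range of -0.046 to 0.008 with 1 library left out. Cdkn2d between the constructs was -0.033 without the third PRMT5 (WT) library (range -0.033 to 0.10), and Cdkn1c for PRMT5 (E444Q) against 4OHT alone was 0.007 without the second library with 4OHT alone (range -0.21 to 0.007).

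Between the constructs, the number of members called was 1, and it was 2 with library totals only, without the filter and with a filter of 1 CPM in 3 libraries, and 3 with DESeq2 and with only the libraries compared. Leaving out 1 library gave 1 to 3 members, with 2 without the first and 3 without the third library with 4OHT alone. Over all genes the count was 712, and 1140 with DESeq2, 1565 with only the libraries compared and 400 to 1099 with 1 library left out, the highest without the third library with 4OHT alone and the lowest without the second PRMT5 (E444Q) library. It was 432 without the first and 411 without the third PRMT5 (E444Q) library, and 472 without the third PRMT5 (WT) library. The number of pathway genes called was 2, and 6 with only the libraries compared. The main model shares 1 estimate of the spread over all groups. Between pairs of libraries, the spread relative to counting error was taken as a chi-square per gene, with counts divided by 4. It was 8.13 to 27.6 with 4OHT alone, 7.25 to 8.82 for PRMT5 (E444Q) and 3.89 to 5.04 for PRMT5 (WT). Such a ratio rises with depth where libraries differ beyond counting error. Depth differed between the groups, so these values do not rank the groups by spread. The highest values, 19 and 27.6, were those of pairs with the third library with 4OHT alone. The cause of the differences in the number called was not tested. Library totals without TMM moved the median of all genes from 0.04 to 0.16 for PRMT5 (E444Q) and from 0.02 to 0.11 for PRMT5 (WT) against 4OHT alone.

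Replicate numbers are shared between groups but were not taken as pairs. The correlation of same-numbered libraries ranged from -0.029 to 0.154, beside -0.159 to 0.108 for libraries with different numbers. These values do not settle whether the numbers mark pairs. With the replicate number as a block, 674 genes and 1 member were called between the constructs, and 8 members in each comparison with 4OHT alone. For Cdkn2c, at 1.78 to 3.06 CPM, depth and spread left intervals of up to 0.74 on the log2 scale.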
